A study of Homo sapiens with 8 samples.

Results

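Syndecans and glypicans are the main families of heparan sulfate proteoglycans on the cell surface, and the 10 human genes that encode them (SDC1 to SDC4 and GPC1 to GPC6) were found by symbol among 58870 genes. Each gene encodes a core protein that carries long sulfated sugar chains. Syndecans span the membrane and bind scaffold proteins inside the cell, whereas glypicans are held to the outer leaflet by a lipid anchor. The chains bind growth factors, morphogens and matrix proteins, so these proteins act as co-receptors, and in pancreatic ductal tumours GPC1 and SDC1 are studied as surface markers.

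RNA from 8 samples of CFPAC-1, an established line of pancreatic ductal adenocarcinoma, had been sequenced. Of these, 4 carried an empty vector and 4 carried an ADRA2A transgene, which encodes the alpha-2A adrenergic receptor. All were grown without drug for 72 hours in IMDM with 10% serum and antibiotics. The promoter of the transgene, the number of transduced clones and whether the 4 samples of a group were separate transductions are not given in the sources used here, so p-values measure only the spread between these samples.

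Library totals lay between 14427035 and 17528915 estimated counts. ADRA2A was listed at 0 counts in every empty-vector library and at 112, 142, 154 and 172 counts in the transgene libraries. Of 10 ductal epithelial markers, 9 passed the filter on low counts, and the list's summed level was 12214 to 12791 CPM (estimated counts scaled to a common library size by TMM) with the vector and 12153 to 13209 CPM with the transgene. Within that sum KRT7 was at 781 and 579 CPM, CDH1 at 412 and 327 CPM and MUC1 at 279 and 483 CPM in the group means. The marker that did not pass was CFTR, at a mean of 0.708 and 0.431 CPM. Fibroblast markers summed to at most 2.49 CPM and endothelial markers to at most 3.35 CPM in any library. Among 6 leukocyte markers CD3E was listed at 0 throughout, and the list's sum of 90.2 to 96.8 CPM with the vector and 110.1 to 121 CPM with the transgene was nearly all CD68, at 91.6 and 114 CPM. The part of these markers in the results was not tested.

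Of the 10 genes, 7 were tested, of which 4 rose with the transgene and 0 fell. GPC6 rose 2.54-fold, SDC3 1.30-fold, GPC4 1.25-fold and SDC1 1.12-fold. SDC4 and GPC1, both well expressed, did not pass the test, nor did GPC3. SDC2, GPC2 and GPC5 had too few counts to be tested. Their summed counts were 12, 39 and 2 with the vector and 2, 18 and 0 with the transgene. Among the 7 tested, 57.1% passed an adjusted p of 0.05, beside 42.7% of the 14785 genes tested in this comparison. Of all tested genes, 21.6% passed it as higher in the transgene cells. With 7 genes tested, the count says little about the list. The median log2 fold change was 0.32 over the 7 tested genes and 0.0006 over all tested genes. In all 4 genes that rose, the 4 transgene libraries lay above the 4 vector libraries. That held for 19.7% of tested genes, and in 39.2% the groups lay apart in one direction or the other. In RNA from whole cultures, more RNA per cell and more cells that express a gene cannot be told apart.

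**Figure D1:**
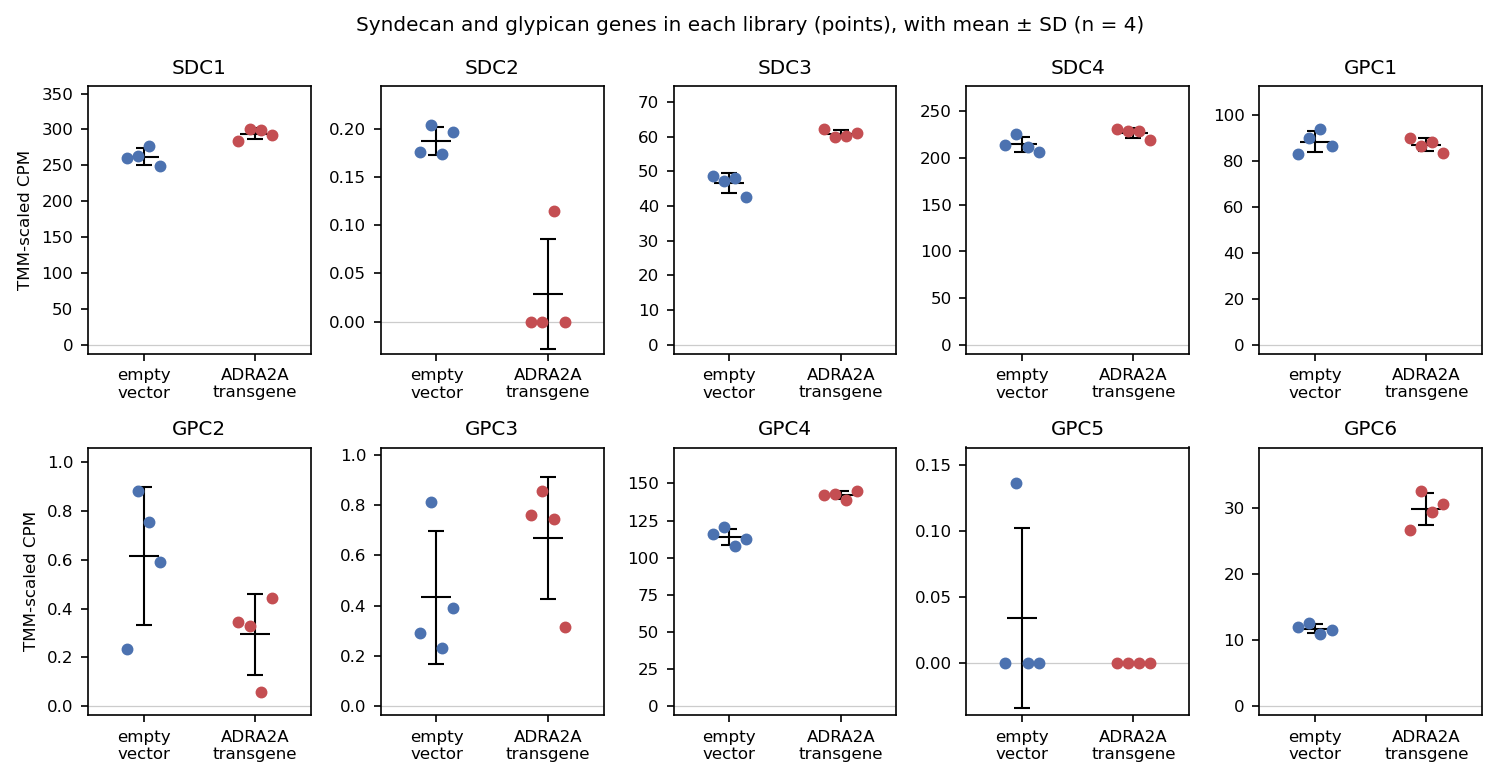
TMM-scaled CPM (y axis, 1 scale per panel) of the 10 genes in each library, as points for empty-vector (blue) and ADRA2A transgene (red) cells, with the mean ± SD of 4 libraries in black. The groups are apart in SDC1, SDC3, GPC4 and GPC6 and overlap in SDC4, GPC1, GPC2, GPC3 and GPC5, while SDC2 rests on at most 3 counts per library.

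The promoter of GPC6, the gene with the largest change, is shown with that of GPC4, the glypican with the highest level per kb of annotated exon, because their base composition differs. Sequences are from the RefSeq table on GRCh38.p14, which held promoters for 8 of the 10 genes. Each runs 5′ to 3′ on the gene's strand, from 250 bases before to 50 bases after the annotated start. Capitals mark matches to the letters of a TATA box (TATAAA) in GPC6 and of GC boxes (GGGCGG, here read on the other strand) in GPC4.
GPC6 (chr13:93226557-93226856, plus strand): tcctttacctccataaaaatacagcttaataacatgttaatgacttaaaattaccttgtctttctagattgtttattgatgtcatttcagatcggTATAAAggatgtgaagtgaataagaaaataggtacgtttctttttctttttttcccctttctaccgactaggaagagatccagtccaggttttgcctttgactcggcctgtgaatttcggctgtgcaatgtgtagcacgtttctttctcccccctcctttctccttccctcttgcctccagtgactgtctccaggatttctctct
GPC4 (chrX:133415440-133415739, minus strand): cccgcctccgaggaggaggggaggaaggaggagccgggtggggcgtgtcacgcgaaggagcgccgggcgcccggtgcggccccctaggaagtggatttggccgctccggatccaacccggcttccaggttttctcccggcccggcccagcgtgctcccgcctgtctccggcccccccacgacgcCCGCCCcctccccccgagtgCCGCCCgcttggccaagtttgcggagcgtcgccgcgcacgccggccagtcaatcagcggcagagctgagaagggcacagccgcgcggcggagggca
The GPC6 window was 40.0% G and C, lower than the median of 58.7% over 35116 promoters and at their 11.2th percentile. The windows of the 7 other members found lay between 65.0% and 84.0%. The TATA box letters on either strand were present in the window of GPC6, in that of GPC5 and in 11.5% of all promoters. In GPC6 they began at position 96, or -155 from the annotated start, and whether they act as a TATA box was not tested. A GC box on either strand was present in 45.0% of all promoters. It was found in the windows of SDC1, SDC3, SDC4, GPC1, GPC2, GPC4 and GPC5, with 8 in SDC4, and not in that of GPC6. By their letters these 2 motifs cannot overlap each other.

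SDC1 (ENSG00000115884.11) encodes the predominant syndecan of epithelia. The gene's place on GRCh38 is chromosome 2, 20200797 to 20225433, minus strand. Its level was 259.6, 262, 277 and 249.8 CPM in empty-vector replicates 1 to 4 and 284, 300.45, 299.9 and 293 CPM in ADRA2A replicates 1 to 4. All transgene libraries were higher than all vector libraries, though by a small margin. This is a log2 fold change of 0.17 ± 0.04 for SDC1, given with its SE (adjusted p = 0.00106 by edgeR). All adjusted p-values are from edgeR's quasi-likelihood test, with the Benjamini-Hochberg method over every tested gene.

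SDC3 (ENSG00000162512.16; chromosome 1, 30869466 to 30908758, minus strand) encodes a syndecan best known from the nervous system, where it binds the growth factor pleiotrophin. It was measured at 48.8, 47.2, 48.2 and 42.5 CPM with the vector and at 62.1, 59.9, 60.2 and 61.2 CPM with the transgene. The transgene libraries lay close together and above every vector library. Its log2 fold change was 0.38 ± 0.05 (SE; adjusted p = 4.31e-06 by edgeR), the larger of the changes among syndecans that passed.

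SDC4 (ENSG00000124145.6; chromosome 20, 45325288 to 45348424, minus strand), a syndecan of focal adhesions that works with protein kinase C alpha, had 214, 226, 211 and 206 CPM with the vector. With the transgene it had 231, 228, 228 and 219 CPM. The highest vector library lay within the range of the transgene libraries. SDC4 had a log2 fold change of 0.08 (95% interval 0.0048 to 0.16), and it did not pass the test (adjusted p = 0.0811 by edgeR, unadjusted p = 0.0384). Without empty-vector replicate 2 the log2 fold change of SDC4 was 0.11 and it passed, with an adjusted p of 0.0260, the lowest of a range up to 0.235 over the alternative fits.

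SDC2 (ENSG00000169439.12), a syndecan typical of mesenchymal cells, had 3 counts in each empty-vector library. The transgene libraries held 0, 0, 2 and 0 counts, each fewer than any vector library. Since 3 counts per library is the limit compatible with a reading of 0, no fold is given. In an edgeR fit with no filter on low counts, SDC2 had an unadjusted p of 0.0449 and an adjusted p of 0.136.

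GPC6 (ENSG00000183098.11) encodes a glypican linked to hedgehog and Wnt signalling in growing bone. The gene covers 1181 kb of chromosome 13 (93226807 to 94408020, plus strand). It was measured at 12.1, 12.6, 10.9 and 11.5 CPM in empty-vector replicates 1 to 4 and at 26.7, 32.6, 29.4 and 30.6 CPM in ADRA2A replicates 1 to 4. The lowest transgene library was above the highest vector library by more than the whole range within either group. GPC6 had a log2 fold change of 1.34 ± 0.08 (SE; adjusted p = 5.84e-11 by edgeR), and its size stood at the 97.3th percentile of all tested genes. GPC6 was the one tested member with a log2 fold change of at least 1, which 4.66% of tested genes reached in either direction with an adjusted p under 0.05. Of the GPC6 exon bases, 511 are shared with AL354811.1, a non-coding gene on the opposite strand, which had 0 to 4 counts in any library.

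GPC4 (ENSG00000076716.9; chromosome X, 133300103 to 133415489, minus strand) encodes a glypican that takes part in FGF and Wnt signalling. It had 116, 120.3, 108 and 113 CPM with the vector and 142, 143, 139 and 145 CPM with the transgene. Again no library of one group reached the range of the other. Its log2 fold change was 0.32 ± 0.04 (SE; adjusted p = 2.55e-06 by edgeR).

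GPC1 (ENSG00000063660.9; chromosome 2, 240435663 to 240468076, plus strand) encodes a co-receptor for heparin-binding growth factors. Its level was 83.1, 89.8, 93.9 and 86.7 CPM with the vector and 90.0, 86.5, 88.1 and 83.4 CPM with the transgene. The groups overlapped over nearly their whole range. For GPC1 the log2 fold change was -0.02, with a 95% interval of -0.12 to 0.07 (adjusted p = 0.725 by edgeR). Its sign turned, to 0.0083, when empty-vector replicate 3 was left out.

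GPC3 (ENSG00000147257.13), an oncofetal glypican known from liver tumours, lies next to GPC4 on chromosome X, from 133535745 to 133987100 on the minus strand. It had 5, 12, 4 and 6 counts with the vector and 11, 13, 13 and 5 counts with the transgene. The groups overlapped. The 95% interval of its log2 fold change ran from -0.28 to 1.59 (adjusted p = 0.258 by edgeR), so a difference was not detectable at this depth.

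GPC2 (ENSG00000213420.8), a glypican of developing neurons, had 4, 13, 13 and 9 counts with the vector and 5, 5, 1 and 7 counts with the transgene. These counts did not pass the filter, and the groups overlapped (unfiltered edgeR fit, adjusted p = 0.180). GPC5 (ENSG00000179399.15), the neighbour of GPC6 on chromosome 13, had 2 counts in empty-vector replicate 2 and 0 in each of the other libraries.

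Levels of different genes were compared as CPM per kb of annotated exon. In the vector cells SDC4 stood highest at 82.0 ± 3.21 CPM per kb, followed by SDC1 at 72.6 ± 3.14, GPC4 at 23.0 ± 1.06, GPC1 at 13.5 ± 0.704, SDC3 at 6.60 ± 0.400 and GPC6 at 1.65 ± 0.0988 (SD, n = 4 each). Below them GPC2, at 0.160 ± 0.0732, and GPC3, at 0.132 ± 0.0800, differed by less than their spread. SDC2 was at 0.0459 and GPC5 at 0.00961 CPM per kb. The first 6 places were the same with the transgene. With the length of the canonical transcript in place of all exons, SDC1 stood above SDC4 in the vector cells by less than the SD. In the transgene cells SDC1 was at 93.0 ± 2.43 and SDC4 at 86.7 ± 1.89 CPM per kb by that length (SD, n = 4 each). The order of SDC1 and SDC4 thus depended on the length used. On that scale GPC1, at 23.8 ± 1.23 CPM per kb, and GPC4, at 23.0 ± 1.06, also lay within their SD in the vector cells (n = 4 each).

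Syndecans summed to 161 ± 5.25 CPM per kb with the vector and 177 ± 2.58 with the transgene (SD, n = 4 each). SDC4 and SDC1 made up 50.9% and 45.0% of that sum with the vector and 49.0% and 46.1% with the transgene. Glypicans summed to 38.5 ± 1.20 CPM per kb with the vector and 46.5 ± 0.465 with the transgene (SD, n = 4 each). For both families every transgene library had a higher sum than every vector library. The share of GPC6 among glypicans was 4.29% ± 0.182 with the vector and 9.01% ± 0.699 with the transgene, while that of GPC1 was 35.2% ± 1.93 and 28.7% ± 1.05 (SD, n = 4 each). By exon length GPC4 held the largest share in both groups, at 59.7% and 61.7%. By canonical transcript length GPC1 was at 48.6% ± 2.10 and GPC4 at 47.1% ± 1.93 with the vector, a gap within the SD (n = 4 each). With the transgene GPC4 was at 50.6% and GPC1 at 41.3% by that length, so there GPC4 stood above GPC1. In CPM without length scaling, the sum over syndecans was 1.11 times and the sum over glypicans 1.21 times as high with the transgene. These sums are descriptions of the libraries and were not tested.

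**Figure D2:**
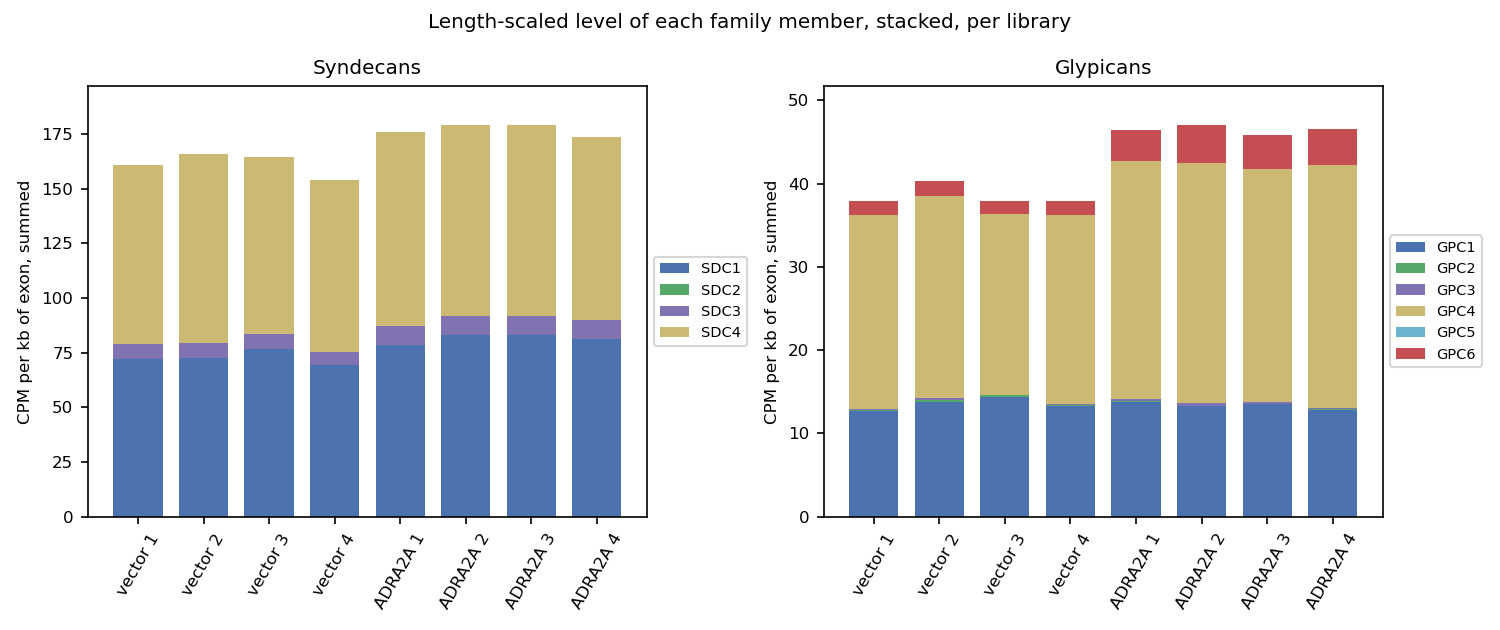
Length-scaled level (y axis, CPM per kb of exon, from 0) of the syndecans (left) and glypicans (right) in each of the 8 libraries, stacked by gene. SDC1 and SDC4 fill most of the left bars, and the GPC6 segment is thicker in each transgene bar than in each vector bar of the right panel.

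The members that rose lie on 4 chromosomes. Around GPC6, 15 tested genes had their midpoint within 5 Mb, and their median log2 fold change was -0.10, with 0 of them above GPC6. Of these, 3 passed as higher and 4 as lower. SLC15A1, at 0.68, CLDN10, at 0.45, and DNAJC3, at 0.27, were higher, and RAP2A, at -0.38, ABCC4, at -0.35, MBNL2, at -0.26, and IPO5, at -0.19, were lower. Around GPC4 the median over 40 genes was -0.07, with 3 higher and 9 lower at an adjusted p under 0.05, and 4 exceeded GPC4. HS6ST2, at 0.30 and a distance of -0.56 Mb between midpoints, was 1 of the 3 higher. The 119 neighbours of SDC3 had a median of 0.08, with 38 higher and 16 lower at an adjusted p under 0.05, and 15 exceeded SDC3. For SDC1 the median over 33 neighbours was 0.06, with 7 higher and 7 lower, and 9 exceeded SDC1.

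**Figure D3:**
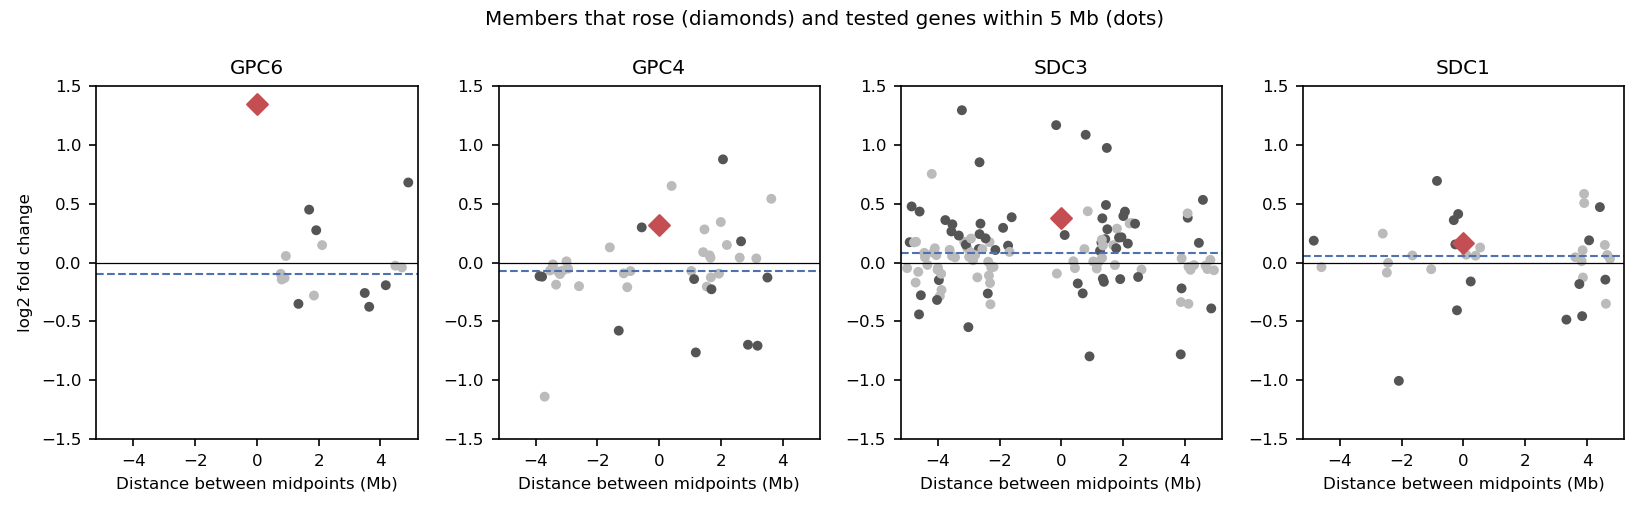
log2 fold change (y axis) of GPC6, GPC4, SDC3 and SDC1 (red diamonds) and of the tested genes within 5 Mb (dots, dark where the adjusted p was under 0.05), against the distance between gene midpoints (x axis, Mb). The dashed line is the median of the neighbours, which lies between -0.10 and 0.08, and the GPC6 diamond stands above all 15 of its neighbours.

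The genes whose log2 CPM followed that of GPC6 most closely over the 8 libraries were LGALS3BP, COL17A1 and IGFBP7, each with a Pearson r of 0.996 to 0.997. LGALS3BP, which encodes a secreted galectin-binding glycoprotein, was at 599.7 ± 10.4 CPM with the vector and 719 ± 9.84 CPM with the transgene (SD, n = 4 each). COL17A1, a transmembrane collagen of hemidesmosomes, went from 63.99 ± 3.32 to 146 ± 3.95 CPM (SD, n = 4 each). IGFBP7, a secreted insulin-like growth factor binding protein, went from 76.8 ± 2.15 to 175 ± 6.50 CPM (SD, n = 4 per group). The points share the same libraries and the same contrast of groups, so the r is a description.

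Heparan sulfate chains are started on the core protein by a short linker and lengthened by EXT1 and EXT2. Of 12 genes for these steps 10 were tested, and 5 rose and 0 fell, and the median log2 fold change was 0.17. The 50% that passed stands near the 42.7% of all tested genes, so the count says little about the list. B4GALT7, B3GAT3, XYLT2 and FAM20B, which build or phosphorylate the linker, had log2 fold changes of 0.31, 0.28, 0.19 and 0.14. EXT1, a subunit of the polymerase, rose from 66.0 ± 3.51 to 79.6 ± 2.53 CPM (SD, n = 4 per group; on the log2 scale 0.27, adjusted p = 0.000108 by edgeR). Its partner EXT2 was at 59.2 ± 2.45 and 62.6 ± 3.55 CPM and did not pass the test (SD, n = 4 per group; adjusted p = 0.218 by edgeR). Whether EXT1 and EXT2 differed from each other was not tested.

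The enzymes that sulfate and trim the chains moved both ways. Of 20 genes 11 were tested, of which 3 rose and 6 fell (median log2 fold change -0.14), where 21.6% of all tested genes were higher and 21.1% lower. HS3ST2, which adds a rare sulfate group to the 3-O position of glucosamine, had 62, 45, 63 and 68 counts with the vector and 1, 5, 3 and 7 counts with the transgene. The groups were far apart at low abundance, at 3.70 ± 0.574 and 0.253 ± 0.166 CPM (SD, n = 4 each). HS3ST2 had a log2 fold change of -3.82 ± 0.34 (SE; adjusted p = 2.10e-08 by edgeR). HS3ST1, which makes the antithrombin-binding form, fell from 33.4 ± 1.71 to 25.3 ± 0.910 CPM (SD, n = 4 per group; on the log2 scale -0.40, adjusted p = 2.29e-05 by edgeR).

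The 6-O-sulfotransferase genes HS6ST1 and HS6ST2 rose, with log2 fold changes of 0.40 and 0.30 (adjusted p = 1.75e-06 and 5.08e-06 by edgeR). HS6ST1 went from 61.2 to 80.5 CPM and HS6ST2 from 84.3 to 104 CPM in group means. SULF2, which removes 6-O-sulfates outside the cell, fell from 82.2 ± 3.08 to 74.5 ± 1.99 CPM (SD, n = 4 per group; on the log2 scale -0.14, adjusted p = 0.0121 by edgeR). Its paralog SULF1 was listed at 0 in all libraries. HPSE, the heparanase that cuts the chains, had a log2 fold change of -0.25 (adjusted p = 0.0200 by edgeR). That call was lost without empty-vector replicate 4, at -0.22, without ADRA2A replicate 1, at -0.19, and without ADRA2A replicate 3, at -0.23.

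The promoter of HS3ST2, the gene with the largest change in these lists, is shown with the cAMP response element (TGACGTCA) in capitals, at position 205 of the window. That motif was searched because ADRA2A is known to couple to an inhibitory G protein that lowers cyclic AMP.
HS3ST2 (chr16:22813912-22814211, plus strand): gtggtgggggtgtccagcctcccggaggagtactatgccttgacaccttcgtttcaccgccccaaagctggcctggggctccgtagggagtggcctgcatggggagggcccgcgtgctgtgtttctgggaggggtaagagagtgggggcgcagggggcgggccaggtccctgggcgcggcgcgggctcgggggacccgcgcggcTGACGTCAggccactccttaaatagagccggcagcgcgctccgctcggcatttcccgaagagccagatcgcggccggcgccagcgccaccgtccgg
This element was present in 1.85% of the 35116 promoters and in none of the windows found for the syndecans and glypicans. It reads the same on both strands and by its letters cannot overlap a GC box or TATA box. Promoters of the other pathway genes are not described here, and a part of the element in the change of HS3ST2 was not tested. The match is a description of the letters only.

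Syndecans and glypicans are released from the cell by proteases and by the lipase NOTUM, and glypican core proteins are cut by proprotein convertases. Of 15 genes of this list 10 were tested, of which 6 rose and 1 fell (median log2 fold change 0.22). Passing the test were 70% of the list's tested genes, beside 42.7% of all tested genes, of which 21.6% were higher and 21.1% lower. PCSK6, a proprotein convertase, was at 7.09, 7.33, 6.51 and 5.89 CPM with the vector and at 23.6, 22.6, 26.1 and 26.1 CPM with the transgene. For PCSK6 the log2 fold change was 1.88 ± 0.09 (SE; adjusted p = 3.31e-12 by edgeR). PCSK5, another convertase, rose from 7.47 ± 0.554 to 14.9 ± 0.461 CPM (SD, n = 4 per group; on the log2 scale 0.99, adjusted p = 4.19e-08 by edgeR). MMP7, a metalloprotease that sheds SDC1 from epithelial cells, rose from 1355 ± 81.6 to 1858 ± 43.8 CPM (SD, n = 4 per group; on the log2 scale 0.46, adjusted p = 4.42e-09 by edgeR). ADAM10, a membrane sheddase, had a log2 fold change of 0.22 (adjusted p = 2.49e-05 by edgeR). The gene that fell was MMP14 (log2 fold change -0.11, adjusted p = 0.0151 by edgeR). FURIN, at a mean of 149 CPM with the vector and 154 CPM with the transgene, did not pass (adjusted p = 0.274 by edgeR). MMP14 and FURIN were named after their values were seen. NOTUM had 1 to 9 counts per library and was not tested.

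All 12 genes of the list of syndecan tail partners were tested, with 2 higher, 5 lower and a median log2 fold change of -0.10. The share that passed was 58.3%, beside 42.7% of all tested genes (21.6% higher and 21.1% lower). CASK, a scaffold that binds the end of the syndecan tail through its PDZ domain, rose from 81.7 ± 2.33 to 105 ± 2.78 CPM (SD, n = 4 per group; on the log2 scale 0.36, adjusted p = 7.46e-07 by edgeR). SDCBP, which encodes syntenin, a scaffold for the same tail, fell from 164 ± 6.37 to 145 ± 2.28 CPM (SD, n = 4 per group; on the log2 scale -0.18, adjusted p = 0.000789 by edgeR). ACTN1, the actin crosslinker alpha-actinin 1, had -0.25, and PRKCA, the kinase partner of SDC4, had 0.24 on the log2 scale, and both passed the test.

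Among 10 other proteoglycans that can carry heparan sulfate, 9 were tested, with 5 higher, 1 lower and a median log2 fold change of 0.14. The share that passed was 66.7%, against 42.7% over all tested genes, 21.6% being higher and 21.1% lower. In 9 of 15 alternative fits 4 of the list, not 5, were higher. HSPG2, or perlecan, named after its values were seen, passed narrowly (log2 fold change 0.14, adjusted p = 0.0459 by edgeR) and its groups overlapped. TGFBR3, or betaglycan, a co-receptor for TGF-beta, was at 6.91, 5.90, 7.20 and 6.35 CPM with the vector and at 20.0, 19.7, 19.1 and 17.9 CPM with the transgene. Its log2 fold change was 1.53 ± 0.09 (SE; adjusted p = 7.08e-11 by edgeR). The basement membrane proteoglycans AGRN and COL18A1 had log2 fold changes of 0.24 and 0.18 (adjusted p = 4.03e-06 and 9.61e-05 by edgeR). SPOCK3, a secreted testican, had -0.65 (adjusted p = 0.00720 by edgeR).

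Of 14 ligands that bind heparan sulfate 7 were tested, with 2 higher, 4 lower and a median log2 fold change of -0.34. Of the tested ligands 85.7% passed, where 42.7% of all tested genes did (21.6% higher, 21.1% lower). With 7 genes, that share is a description and was not tested. The paralogs midkine and pleiotrophin, both known to bind syndecans, moved in opposite directions. MDK rose from 302 ± 19.9 to 618 ± 27.7 CPM (SD, n = 4 per group), or by 1.03 ± 0.04 on the log2 scale (SE; adjusted p = 3.26e-13 by edgeR). PTN was at 7.91, 8.82, 8.60 and 9.10 CPM with the vector and at 1.31, 2.57, 2.23 and 1.90 CPM with the transgene, with no overlap. For PTN the log2 fold change was -2.09 ± 0.17 (SE; adjusted p = 4.46e-09 by edgeR). HBEGF and VEGFA, growth factors with a heparin-binding region, had log2 fold changes of -0.73 and -0.38 (adjusted p = 5.47e-09 and 1.49e-07 by edgeR).

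**Figure D4:**
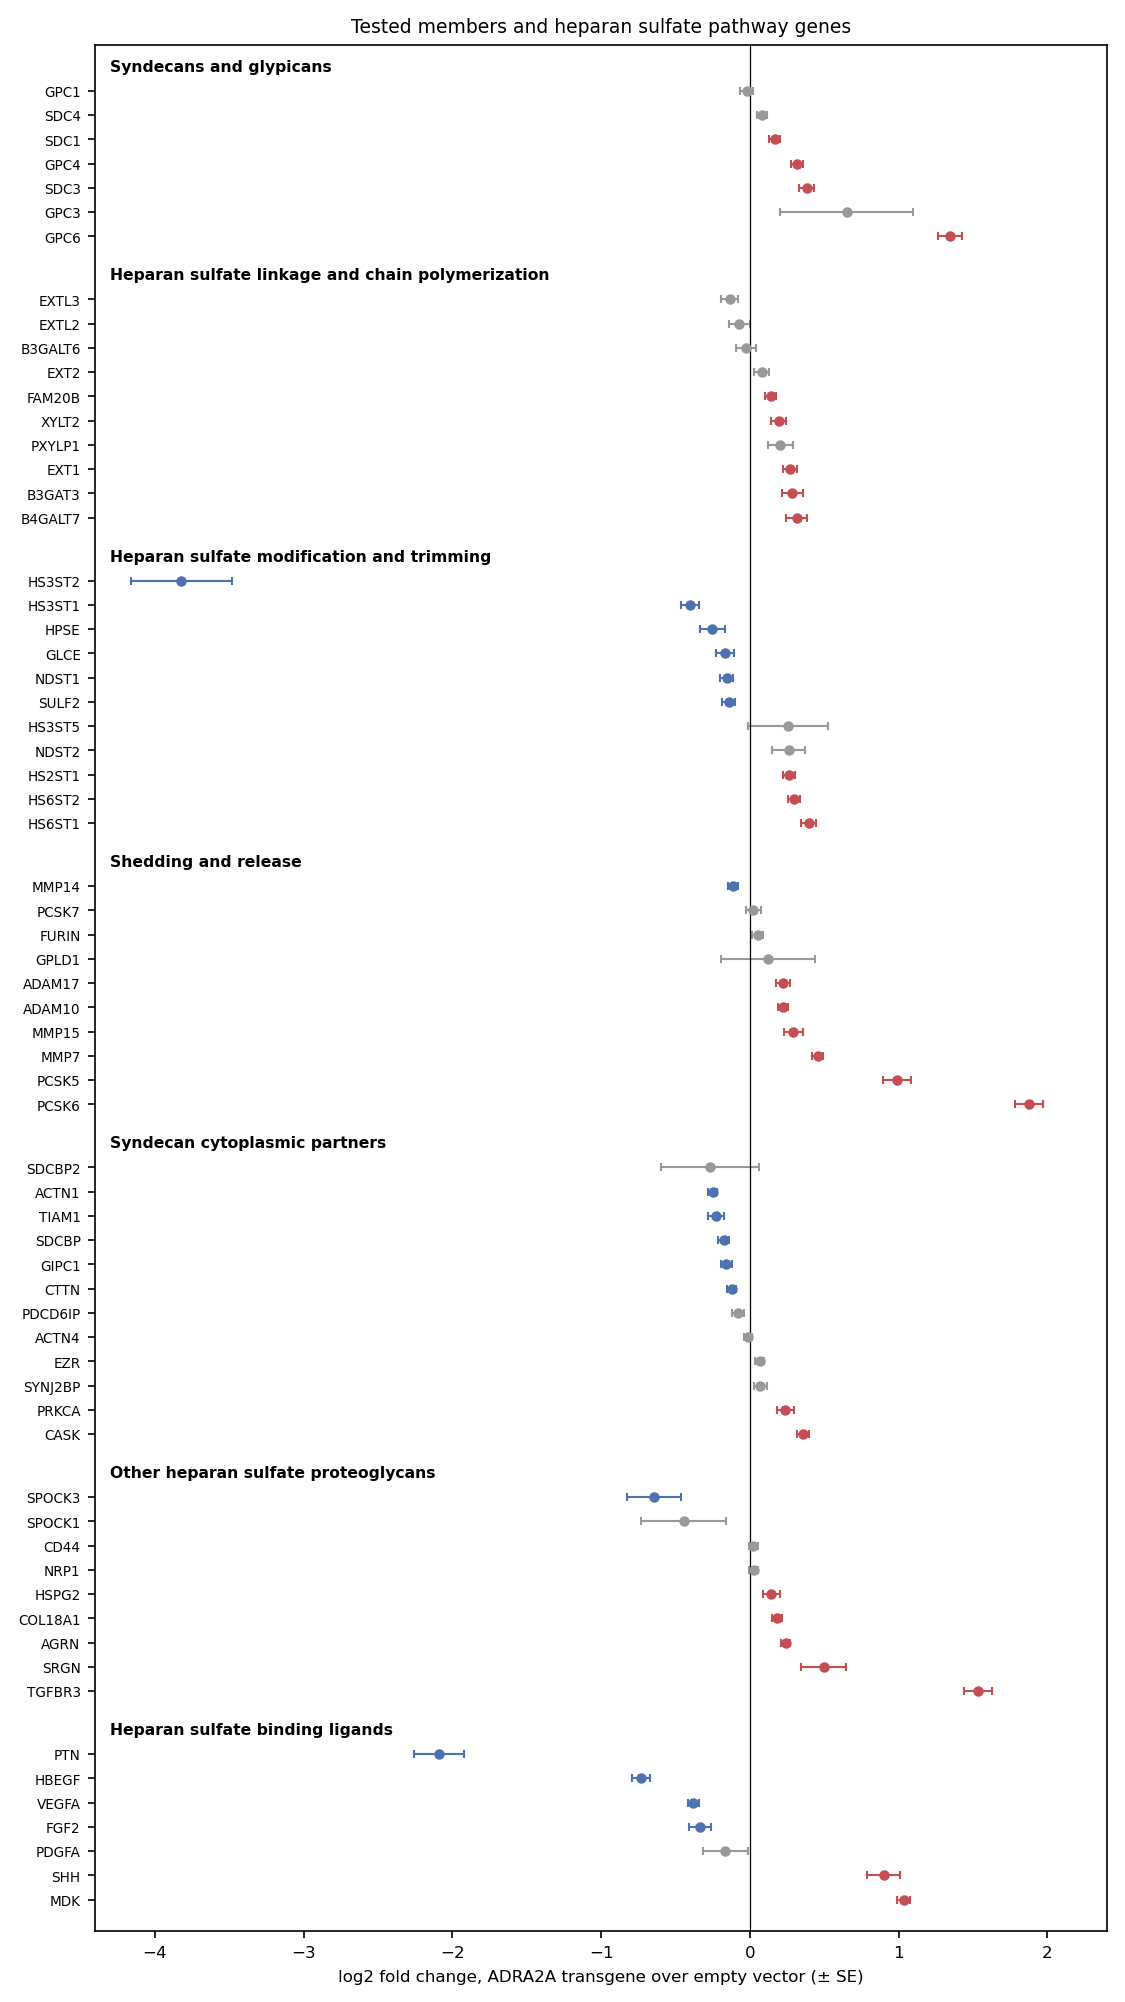
log2 fold change with its SE (x axis, ADRA2A transgene over empty vector) of the 7 tested syndecans and glypicans and of the tested genes of the 6 pathway lists, coloured red where higher and blue where lower at an adjusted p under 0.05 and grey otherwise. GPC6 stands at 1.34, HS3ST2 at -3.82, PCSK6 at 1.88, TGFBR3 at 1.53 and PTN at -2.09.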

How the data were processed

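The authors deposited 1 table of RSEM estimated counts per gene for the 8 libraries, not scaled between samples. The submitters' processing notes name cutadapt, STAR, RSEM, DESeq2 and the build hg38. Versions, annotation release and use of strand are not given in the sources used here. All 8 value columns were assigned by the name in each sample's title, and 0 were left over.

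Counts were rounded, filtered with edgeR's filterByExpr (14785 genes kept), scaled by TMM and tested with edgeR 4.0.16's quasi-likelihood test, with group as the only term and all 8 libraries in 1 fit. P-values were adjusted by Benjamini-Hochberg across the tested genes, with a threshold of 0.05. The SE is the absolute log2 fold change divided by the square root of F. Positions and exon lengths come from GENCODE 44 on GRCh38, matched by Ensembl identifier for 99.4% of genes and for all 10 members. On counts simulated for this comparison over 14635 genes, the fit recovered 66.7% of 48 genes changed 1.25-fold and 95.8% of 48 changed 2-fold. It also called 14 genes that had not been changed. Far fewer genes were changed in the simulation than passed in the real data, so these rates need not hold there. Pairs of replicate libraries differed by more than sampling noise (chi-square per degree of freedom 2.15 to 5.04).

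Named genes were the 10 members, ADRA2A, EXT1, EXT2, SULF1, SULF2, HPSE, NOTUM, up to 4 further genes per list with the smallest p among those that passed, and the 3 genes most correlated with the member of smallest p. The members and lists were chosen with earlier results of these data known, so the share of a list that passed describes the list and does not test it. Alternatives were DESeq2 1.42.0, limma 3.58.1 voom, RLE and upper quartile factors, other filters, a replicate block, and fits lacking 1 library each. Canonical transcript length was added after seeing the data.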

Additional observations from a re-analysis of the deposited data

Results flagged for a closer look

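The tested genes chosen by the naming rule gave 77 groups of 4 libraries. In 3 of these groups, 1 library had a gap to the nearest other above 0.829 of the group's range. Chance flags about 1 group in 20. CASK was at 109 CPM in ADRA2A replicate 1 and at 103 to 104 CPM in the other libraries of that group. HBEGF was at 58.6 CPM in empty-vector replicate 2, beside 50.9 to 51.9 CPM. VEGFA was at 196 CPM in ADRA2A replicate 1, beside 208 to 209 CPM. In each of these 3 genes that library lay on the side away from the other group, so it widened the difference between the group means. No syndecan or glypican was among them.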

How the results depend on the processing

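GPC6, SDC3, GPC4 and SDC1 kept their direction and an adjusted p under 0.05 in all 15 alternative fits, with log2 fold changes of 1.30 to 1.39 for GPC6 when 1 library was left out. Over those 8 fits SDC4 ranged from 0.063 to 0.106 and GPC1 from -0.052 to 0.0083, crossing 0. The number of genes that passed was 6314 and ranged from 5703 to 6550. The ratio of summed levels was also taken with 1 library left out, keeping the scaling of the main fit. It ranged from 1.09 to 1.12 for syndecans and from 1.20 to 1.23 for glypicans. The medians of neighbours ranged from -0.075 to -0.011 for SDC2, from -0.067 to -0.012 for SDC4 and from -0.025 to 0.0088 for GPC2. Keeping only genes whose mean reached 50 counts, the medians were 0.058 for the neighbours of SDC3 and 0.054 for those of GPC5, where the sign turned from a median of -0.096, over fewer genes. With canonical transcript length, the shares in the vector cells were 47.7% for SDC1, 47.2% for SDC4, 5.12% for SDC3 and 0.0327% for SDC2 among syndecans, and 47.1% for GPC4, 48.6% for GPC1 and 3.38% for GPC6 among glypicans. With the replicate number as a block, 6400 genes and the same number of members, 4, passed. Same-numbered libraries of the 2 groups had correlations of -0.076, 0.007, 0.144 and -0.070 in their deviations, and not every library correlated best with its own number, so the numbers were not treated as pairs. Upper quartile factors moved the median of all genes to -0.02, and no named gene changed direction under them. Depth limits SDC2, GPC2, GPC3 and GPC5, each with at most 13 counts in a library.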

Other observations

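SHH, the hedgehog ligand whose signalling glypicans are known to modulate, was the other ligand of the list that rose, and it was chosen for mention after its values were seen. It was at 6.50, 6.58, 5.40 and 7.003 CPM with the vector and at 11.003, 12.6, 11.1 and 12.8 CPM with the transgene. The groups did not overlap. SHH had a log2 fold change of 0.90 ± 0.11 (SE; adjusted p = 1.67e-06 by edgeR).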
